A study of Mus musculus with 14 samples.

Results

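The genes of the CSF1 and GM-CSF receptor axis were followed in the mouse cerebral cortex after cerebral venous sinus thrombosis (CVST), a clot in the large veins that drain the brain. They are the 6 genes whose symbol in the count table is Csf1, Il34, Csf1r, Csf2ra, Csf2rb or Csf2rb2, out of 55359 genes in the table, and all 6 passed the filter on low counts that left 16918 genes for testing. RNA-seq covered 14 samples of cortex from both hemispheres: 5 samples 7 d after CVST was induced, 5 samples 2 d after, and 4 sham samples. Strain, sex, age, how CVST was induced and when sham tissue was taken are not stated in the labels. All groups are bulk tissue with no cell sorting.

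CSF1 (macrophage colony-stimulating factor) and IL-34 are separate ligands of one receptor tyrosine kinase, CSF1R, which microglia and most other macrophages need to survive and divide. In the brain IL-34 comes mainly from neurons and CSF1 mainly from glia. GM-CSF, the product of Csf2, binds a receptor made of its own alpha chain, encoded by Csf2ra, and the beta common chain, encoded by Csf2rb, which the receptors for IL-3 and IL-5 share and which signals through JAK2 and STAT5. Mice carry a second beta gene, Csf2rb2, whose product serves the IL-3 receptor alone.

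Csf2rb and Csf2rb2, the beta chains, rose at both times, and Csf1r rose at 7 d. Csf1, Il34 and Csf2ra did not pass the main test in any comparison. That test was edgeR's quasi-likelihood test with Benjamini-Hochberg adjustment over the 16918 genes, where calls needed an adjusted p below 0.05. At 7 d, 3 of the 6 genes were called higher than sham and 0 lower, where 3.61% of all genes tested were called higher and 0.833% lower, or 4.44% in either direction. At 2 d, 2 of the 6 were called higher and 0 lower, against a background of 2.98% higher and 0.969% lower, or 3.95% in either direction. Between 7 d and 2 d edgeR called 0 of the 6, where 1.54% of all genes were called higher at 7 d and 1.25% lower, or 2.8% in either direction. With no adjustment (p under 0.05), 2 of the 6, Csf1r and Csf2ra, were higher at 7 d than at 2 d and 0 lower, against 10.3% and 10.6% of all genes; DESeq2 called 1 of the 6 in that comparison, Csf2ra, and limma-voom with sample weights 0. By the same unadjusted measure, at 7 d 5 of the 6 stood above sham and 1, Il34, below it, against 11.7% and 7.91% of all genes, and at 2 d 4 stood above sham and 0 below it, against 12.3% and 9.38%. In bulk tissue, more cells of a type and more RNA per cell cannot be told apart.

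Total gene counts were 14.7 to 20.8 M per sample. On the first principal component of log2 CPM, which held 33.1% of the variance, sham replicates 2, 3 and 4 lay at -48.2 to -47.7. Sham replicate 1 lay apart from them, at -27.3. CVST 7 d replicate 2 (-26.9) and CVST 2 d replicate 5 (-26.7) lay beside sham replicate 1, and the other 8 CVST samples lay at 1.48 to 49.1. Below, CVST 7 d replicate 2 and CVST 2 d replicate 5 are named the 2 libraries that lay beside sham. Without those 2 libraries, 4 of the 6 genes were called higher at 7 d (Csf1, Csf1r, Csf2rb, Csf2rb2) and the same 4 at 2 d. In that fit 6.79% of all genes tested were called higher at 7 d and 8.17% at 2 d. The 2 libraries were picked by their place near sham in these same values, so leaving them out favours differences from sham. Calls in that fit, here and below, are thus no separate support. Markers of the labelled tissue were present throughout: excitatory cortical neuron genes summed to 3869 to 6305 CPM at 7 d, 4764 to 5846 CPM at 2 d and 4586 to 6042 CPM in sham, where CPM are counts per M counts of the library, scaled by TMM.

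**Figure D1:**
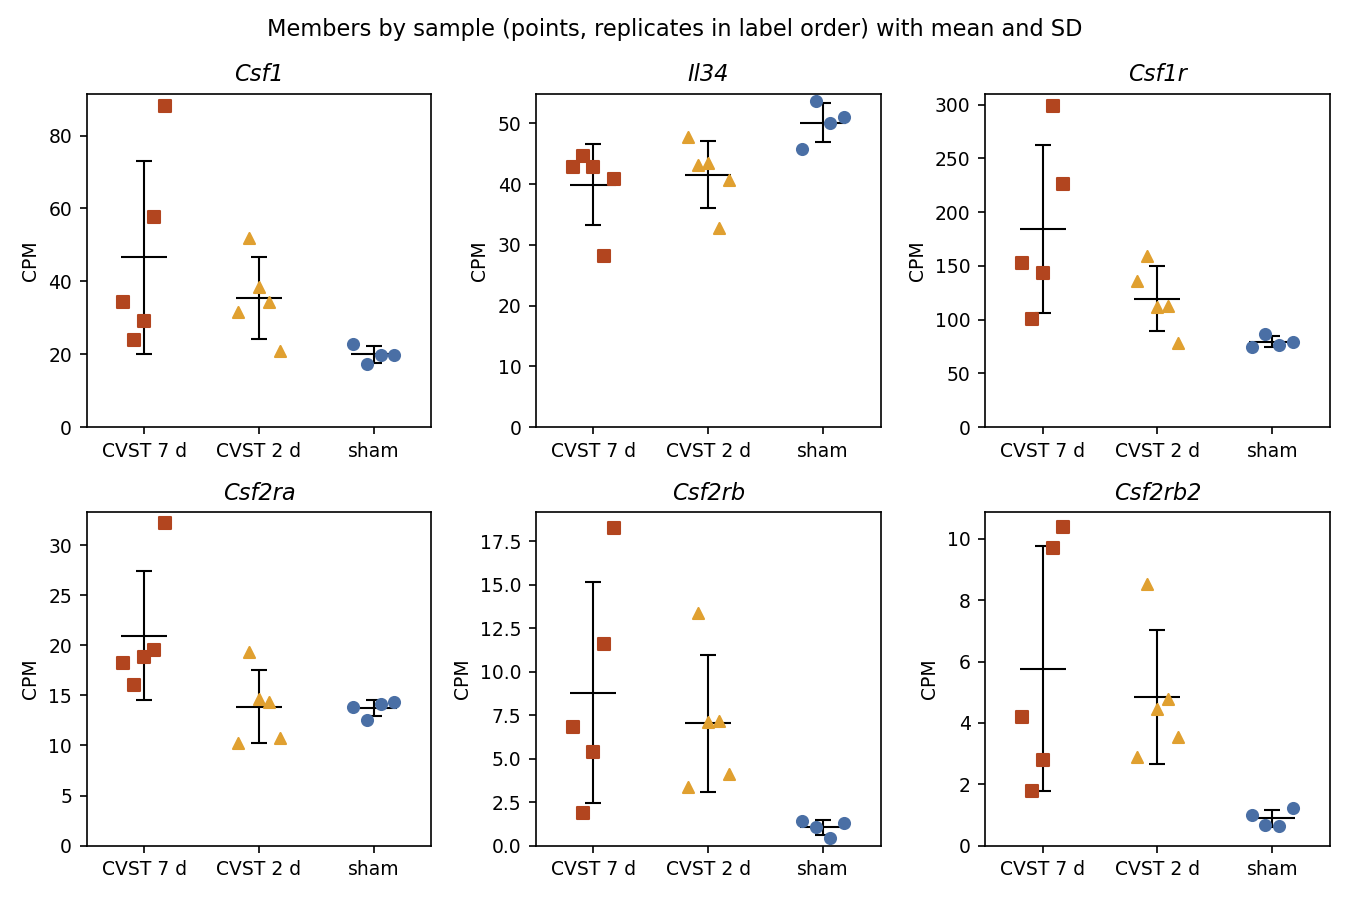
CPM of each of the 6 genes (vertical axes, starting at 0) in every sample of CVST 7 d, CVST 2 d and sham, with the group mean and SD as bars. All 5 samples of CVST 7 d and of CVST 2 d lie above the highest sham sample for Csf2rb and Csf2rb2, and for Il34 all CVST 7 d samples lie below the lowest sham sample.

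Csf1 (ENSMUSG00000014599) had 34.4, 23.8, 29.1, 57.7 and 88.0 CPM in the 5 samples of CVST 7 d, 31.5, 52.0, 38.4, 34.4 and 21.0 CPM in those of CVST 2 d, and 22.9, 17.4, 19.8 and 19.7 CPM in the 4 sham samples. Every sample of 7 d lay above every sham sample, replicates 4 and 5 of 7 d far above the other 3, and 4 of the 5 samples of 2 d lay above the sham range. Csf1 averaged 46.6 ± 26.5 CPM at 7 d (SD, n = 5) and 19.97 ± 2.26 CPM in sham (SD, n = 4), a log2 difference of 1.22 ± 0.34 (SE; adjusted p = 0.0569, edgeR). It averaged 35.4 ± 11.3 CPM at 2 d (SD, n = 5), a log2 difference of 0.83 ± 0.34 from sham (adjusted p = 0.173, edgeR). The size of the difference at 7 d was close to that of Csf1r, but its spread at 7 d was wider, with a coefficient of variation of 56.9% at 7 d and 11.3% in sham. Whether Csf1 was called at 7 d turned on the tool and the libraries: DESeq2 gave an adjusted p of 0.00499, edgeR with no filter on low counts 0.0397, edgeR without CVST 7 d replicate 2 0.0199 and without CVST 7 d replicate 3 0.0431. It was also called when CVST 2 d replicate 5, which enters the shared estimate of spread, was left out. In the other refits without 1 sham or 7 d sample its adjusted p was 0.0601 to 0.149. At 2 d, limma-voom gave an adjusted p of 0.0347 for a log2 difference of 0.93.

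Il34 (ENSMUSG00000031750) had lower mean levels in CVST cortex, without passing the test. It had 42.9, 44.7, 42.9, 28.2 and 40.9 CPM at 7 d, 47.7, 43.2, 43.5, 32.8 and 40.8 CPM at 2 d, and 45.9, 53.7, 49.997 and 51.0 CPM in sham. All 5 samples of 7 d and 4 of the 5 of 2 d lay below the lowest sham sample. Of all genes tested, 3.87% had groups that did not overlap, with 7 d below sham, and 5.8% with 7 d above sham; among the 6 genes, Il34 was the 1 lower and the other 5 were higher. The log2 difference of Il34 was -0.33 ± 0.13 at 7 d (39.9 ± 6.68 CPM at 7 d and 50.1 ± 3.23 CPM in sham; adjusted p = 0.162, edgeR) and -0.27 ± 0.13 at 2 d (41.6 ± 5.51 CPM at 2 d; adjusted p = 0.235, edgeR). The 9 excitatory neuron markers, a class of cell known to make IL-34, had a median log2 difference of 0.01 at 7 d and 0.01 at 2 d, with 0 called by edgeR at either time (0 at an unadjusted p under 0.05 at 7 d and 1 higher at 2 d; DESeq2 called 0 at each time and limma-voom 0 at 7 d and 1 at 2 d). The 7 interneuron markers had medians of -0.20 at 7 d and -0.10 at 2 d, with 0 called by edgeR. With no adjustment 1 was lower at each time; DESeq2 called 1 lower at 7 d and 0 at 2 d, and limma-voom 1 lower at each. Their part in the Il34 values was not tested. In the GENCODE M21 annotation, Il34 shares 75 and 22 exon bases with antisense genes on the other strand, and whether the counting used strand is not known from the labels.

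The balance between the ligands of CSF1R was compared within each sample, as log2 CPM of Csf1 minus log2 CPM of Il34. It joins the same values of Csf1 and Il34 as above, so its test is no separate support for either change. This difference was -0.32, -0.90, -0.56, 1.03 and 1.10 at 7 d, -0.60, 0.27, -0.18, 0.07 and -0.96 at 2 d, and -0.996, -1.61, -1.33 and -1.37 in sham. All CVST samples of both times lay above all sham samples, and the 2 libraries that lay beside sham on the first component (-0.90 and -0.96) came nearest to them. The mean shift from sham was 1.40 at 7 d (exact permutation p = 0.0238; adjusted p = 0.0446 over the 15 ratio tests, 2-sided) and 1.05 at 2 d (exact permutation p = 0.0159; adjusted p = 0.0397). The smallest p that these group sizes allow is 0.00794. Without 1 sample the shift stayed between 1.14 and 1.64 at 7 d and between 0.91 and 1.22 at 2 d. The smallest p is then 0.0286 without a CVST sample and 0.0179 without a sham sample, so that after adjustment over the 15 tests only the refit without CVST 7 d replicate 2 passed (adjusted p = 0.0476), and the adjusted p of the refits says little about stability. CPM are not divided by gene length, so the zero of this scale is not an equal number of transcripts.

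**Figure D2:**
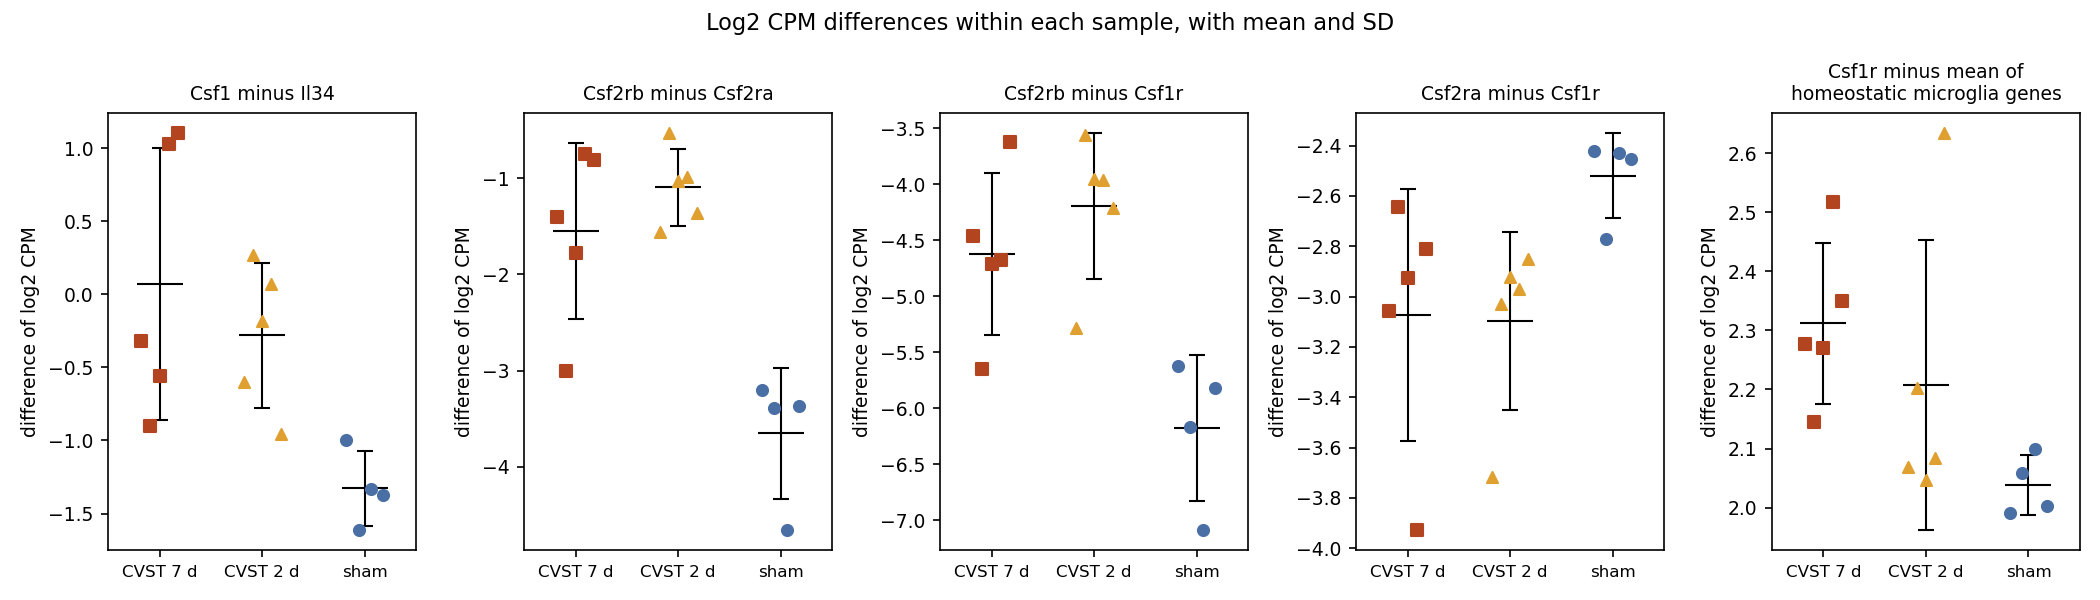
Difference of log2 CPM between 2 genes of the axis, or between Csf1r and the mean of 12 homeostatic microglia genes, in each sample of CVST 7 d, CVST 2 d and sham, with group means and SD as bars. Csf1 minus Il34 and Csf2rb minus Csf2ra lie higher in every CVST sample than in every sham sample.

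Csf1r (ENSMUSG00000024621), the receptor of both ligands, had 153, 101, 144, 299 and 226 CPM at 7 d, 136, 159, 112, 113 and 78.3 CPM at 2 d, and 74.9, 86.4, 76.8 and 79.3 CPM in sham. The 7 d samples lay wholly above sham, and at 2 d replicate 5 lay inside the sham range and the other 4 above it. Csf1r averaged 185 ± 78.4 CPM at 7 d (SD, n = 5) and 79.3 ± 5.03 CPM in sham (SD, n = 4), and it rose 2.33-fold (log2 1.22 ± 0.27 SE, adjusted p = 0.0216, edgeR). At 2 d it averaged 120 ± 30.1 CPM (SD, n = 5), a log2 difference of 0.59 ± 0.26 from sham (adjusted p = 0.205, edgeR). Without CVST 7 d replicate 2 and CVST 2 d replicate 5, a choice that favours differences from sham, the log2 difference at 2 d was 0.72 (adjusted p = 0.0362, edgeR). The call at 7 d was lost on leaving out any 1 of the sham samples, with adjusted p of 0.0561, 0.0607, 0.0801 and 0.0703 without replicates 1, 2, 3 and 4, and log2 differences of 1.20 to 1.27. In GENCODE M21, Csf1r shares 873 exon bases with Hmgxb3, a gene on the other strand. Hmgxb3 had 41.3 ± 3.61 CPM at 7 d, 46.1 ± 4.25 CPM at 2 d and 47.1 ± 4.61 CPM in sham, with log2 differences from sham of -0.19 (adjusted p = 0.268, edgeR) and -0.03 (adjusted p = 0.876, edgeR). How the counting treated reads from the shared bases is not known, and their part in the Csf1r values was not tested.

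Homeostatic microglia are the resident macrophages of the brain. Their 12 listed genes, of which Csf1r is not one, summed to 591, 386, 535, 1030 and 947 CPM at 7 d, 581, 721, 507, 528 and 256 CPM at 2 d, and 316, 333, 291 and 319 CPM in sham. CVST 2 d replicate 5, the 2 d sample with the least Csf1r, was also the lowest of all 14 in this sum. At 7 d, 2 of the 12 were called higher and 0 lower, among them Cx3cr1, the fractalkine receptor (log2 1.12 ± 0.30), with a median log2 difference of 0.78, where the median of all genes tested was -0.01. At 2 d, 2 of the 12 were called higher (Fcrls, 1.93 ± 0.51, and Olfml3, 1.61 ± 0.42) and 0 lower, with a median of 0.26. Members of the list did not all go one way at 2 d: P2ry12 had a log2 difference of -0.54 ± 0.24 (adjusted p = 0.209, edgeR) and Siglech of -0.27 ± 0.25 (adjusted p = 0.583, edgeR), and the other 10 had positive values. Both counts were 0 without any of sham replicates 2, 3 and 4; without sham replicate 1 they were 1 at 7 d and 0 at 2 d. Without CVST 7 d replicate 2 the count at 7 d was 6, and without any other single 7 d sample it was 1. Without CVST 2 d replicate 5 the count at 2 d was 4, and without any other single 2 d sample it was 0.

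Set against these microglia genes within each sample, Csf1r stood higher at 7 d than in sham. Log2 CPM of Csf1r minus the mean log2 CPM of the 12 genes was 2.28, 2.15, 2.27, 2.52 and 2.35 at 7 d, and 1.99, 2.06, 2.10 and 2.00 in sham, with no overlap. The mean difference was 0.27 (exact permutation p = 0.0159; adjusted p = 0.0397 over the 15 ratio tests). At 2 d the values were 2.07, 2.20, 2.05, 2.08 and 2.63, and the mean difference from sham of 0.17 did not pass (exact permutation p = 0.183; adjusted p = 0.274); the mean of the 12 then joins members above and below sham. In refits without 1 sample the difference at 7 d stayed between 0.22 and 0.32. Other macrophages also carry CSF1R, and their part in this difference was not tested.

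**Figure D3:**
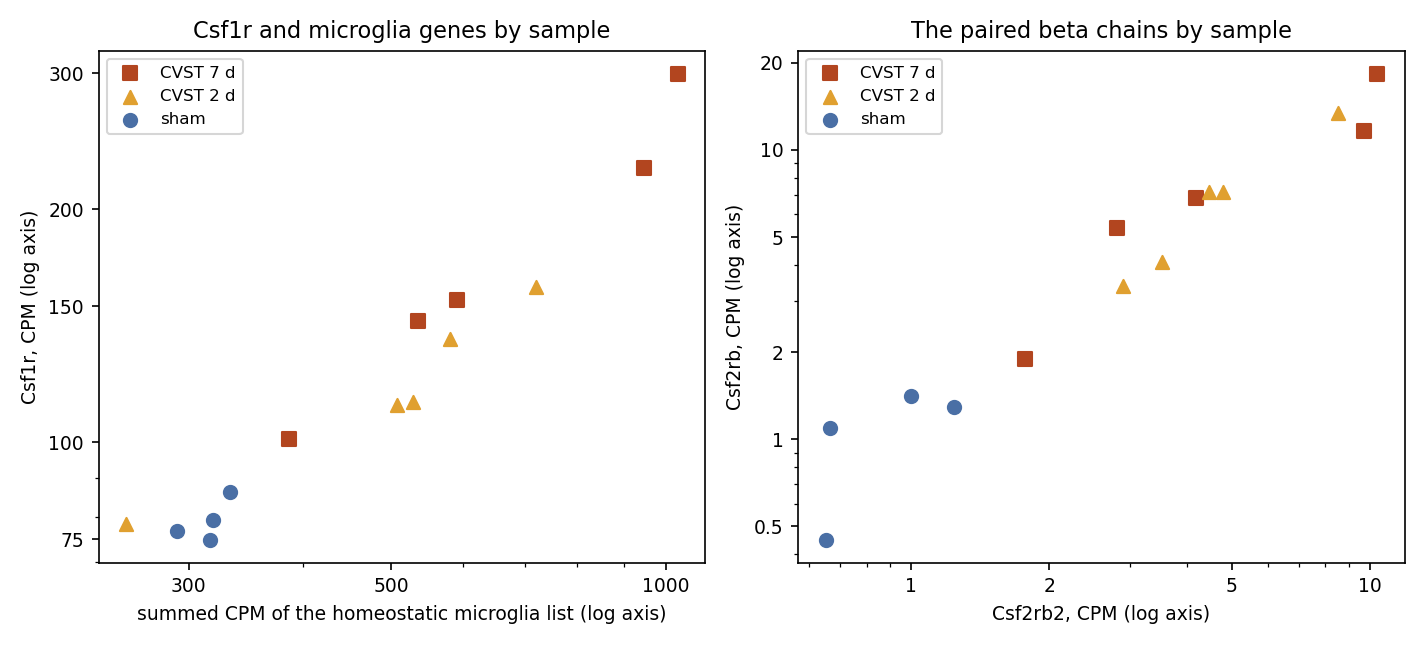
Left, Csf1r CPM against the summed CPM of 12 homeostatic microglia genes in each of the 14 samples (log axes); right, Csf2rb CPM against Csf2rb2 CPM (log axes). Symbols mark CVST 7 d, CVST 2 d and sham; in both panels the sham samples sit together near the lower left, and CVST 7 d replicates 4 and 5 are among the highest.

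Csf2rb and Csf2rb2 are near copies on mouse chromosome 15, so their sequences decide how well reads can be assigned to one or the other. In the GENCODE M21 transcripts, Csf2rb has 2688 coding bases and Csf2rb2 2634, and 2503 of 2628 aligned bases were identical (95.2%). The stretch of 120 coding bases that differs most is shown first, 5′ to 3′, with the 22 differing bases in capitals; it runs from coding base 309 to 428 in Csf2rb and from 312 to 431 in Csf2rb2.
Csf2rb, coding bases 309 to 428: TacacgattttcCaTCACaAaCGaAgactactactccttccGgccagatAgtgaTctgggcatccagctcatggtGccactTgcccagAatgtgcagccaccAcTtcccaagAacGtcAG
Csf2rb2, coding bases 312 to 431: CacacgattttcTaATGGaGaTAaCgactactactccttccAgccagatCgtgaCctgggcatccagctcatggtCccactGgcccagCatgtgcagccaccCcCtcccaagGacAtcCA
Reads from this stretch carry differences that name their gene. By contrast, the stretch from coding base 2083 to 2202 holds 0 differences and reads the same in both genes.
Csf2rb and Csf2rb2, coding bases 2083 to 2202: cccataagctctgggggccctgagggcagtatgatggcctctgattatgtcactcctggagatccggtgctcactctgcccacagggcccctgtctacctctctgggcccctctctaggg
Only coding bases were compared, while the exons hold 7277 bases in Csf2rb and 4740 in Csf2rb2. The longest identical run of coding bases was 242 bases. Of all windows of 150 coding bases, 6.5% of those in Csf2rb occur whole in Csf2rb2, and of windows of 50 bases 26%. Reads from such windows could have been counted for either gene, and how the counting treated them is not stated, so the split of counts between the paralogs is uncertain.

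Csf2rb (ENSMUSG00000071713), the beta common chain, had the largest fold change of the 6 genes at both times. It had 98, 30, 94, 208 and 349 counts at 7 d, 62, 286, 109, 130 and 71 counts at 2 d, and 24, 18, 9 and 24 counts in sham. In CPM these were 6.83, 1.90, 5.39, 11.6 and 18.3 at 7 d, 3.39, 13.4, 7.13, 7.15 and 4.11 at 2 d, and 1.41, 1.09, 0.45 and 1.29 in sham. Every CVST sample lay above every sham sample, and the lowest, CVST 7 d replicate 2, lay only just above. Csf2rb averaged 8.81 ± 6.35 CPM at 7 d (SD, n = 5) and 1.06 ± 0.43 CPM in sham (SD, n = 4), an 8.33-fold rise (log2 3.06 ± 0.61 SE, adjusted p = 0.0160, edgeR). It averaged 7.04 ± 3.95 CPM at 2 d (SD, n = 5), a 6.66-fold rise over sham (log2 2.74 ± 0.61 SE, adjusted p = 0.0284, edgeR).

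Csf2rb2 (ENSMUSG00000071714), the beta chain of the IL-3 receptor, followed it closely. It had 60, 28, 49, 174 and 198 counts at 7 d, 53, 182, 68, 87 and 61 counts at 2 d, and 17, 11, 13 and 23 counts in sham. Again no CVST sample overlapped sham. Csf2rb2 averaged 5.77 ± 4.003 CPM at 7 d and 0.89 ± 0.28 CPM in sham, a 6.47-fold rise (log2 2.69 ± 0.53 SE, adjusted p = 0.0152, edgeR). It averaged 4.84 ± 2.19 CPM at 2 d, a 5.42-fold rise over sham (log2 2.44 ± 0.53 SE, adjusted p = 0.0257, edgeR). Across the 14 samples the log2 CPM of the paralogs had a Pearson r of 0.98, and of 0.93 after the group means were subtracted; the samples share libraries and scaling, and the genes may share reads. At 2 d, 5.65% of all genes tested had groups that did not overlap, with CVST above sham, and 3.06% with CVST below; among the 6 genes these were 2 (Csf2rb and Csf2rb2) and 0.

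The calls of both beta chains depended on single samples. At 2 d, both were lost on leaving out any 1 sham sample (adjusted p 0.0562 to 0.0982 for Csf2rb and 0.0563 to 0.0962 for Csf2rb2) or CVST 2 d replicate 2 (0.0640 and 0.0582), and Csf2rb also without CVST 2 d replicate 4 (0.0506). At 7 d, Csf2rb was lost without sham replicate 2, 3 or 4 (0.0563, 0.0693 and 0.0570) and Csf2rb2 without sham replicate 2 or 3 (0.0573 and 0.0693). The log2 difference stayed between 2.13 and 3.33 in all of these refits. On the deposited FPKM values Csf2rb did not pass at either time, with log2(FPKM + 0.1) differences of 1.92 at 7 d (adjusted p = 0.161, limma) and 1.89 at 2 d (adjusted p = 0.146, limma). There, sham replicate 1 is listed with 1.52 FPKM for 24 counts and sham replicate 4 with 0.34 FPKM for the same 24 counts; across the samples the ratio of FPKM to CPM of this gene varied 5.1-fold, against 1.12-fold for Csf1r.

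Csf2ra (ENSMUSG00000059326), the alpha chain that gives the receptor its hold on GM-CSF, did not rise with the beta chain at 2 d. It had 18.3, 16.0, 18.8, 19.5 and 32.2 CPM at 7 d, 10.2, 19.4, 14.7, 14.3 and 10.8 CPM at 2 d, and 13.9, 12.5, 14.2 and 14.4 CPM in sham. The 2 d samples lay on both sides of the sham range, and the 7 d samples lay above it, replicate 5 far above the rest. The log2 difference from sham was 0.61 ± 0.21 at 7 d (21.0 ± 6.42 CPM at 7 d and 13.7 ± 0.83 CPM in sham; adjusted p = 0.119, edgeR) and 0.01 ± 0.21 at 2 d (13.9 ± 3.66 CPM at 2 d; adjusted p = 0.977, edgeR). The 95% interval of the difference at 2 d, -0.43 to 0.46, does not reach the change of Csf2rb at that time. Between 7 d and 2 d the log2 difference was 0.60 ± 0.20 (adjusted p = 0.107, edgeR), and DESeq2 put it past the threshold (adjusted p = 0.0488). After the group means were subtracted, log2 CPM of Csf2ra had a Pearson r of 0.79 with Csf2rb and 0.78 with Csf2rb2.

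**Figure D4:**
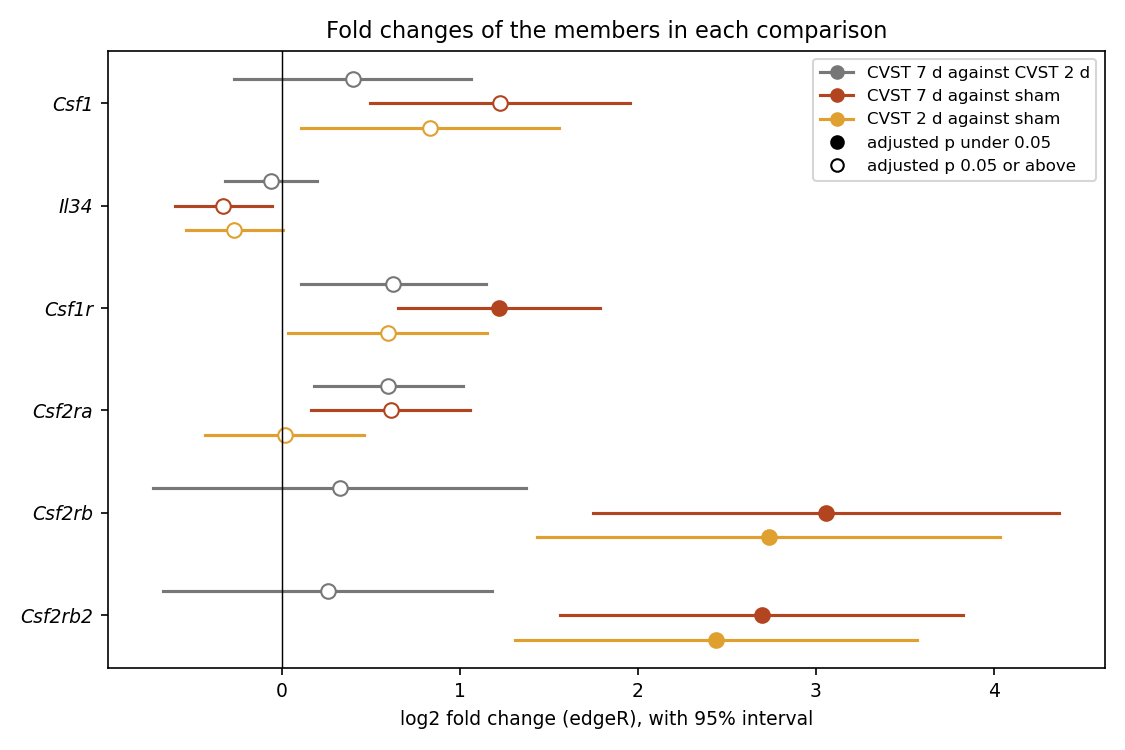
Log2 fold change of each gene with its 95% interval (horizontal axis) for CVST 7 d against CVST 2 d, CVST 7 d against sham and CVST 2 d against sham, by edgeR; filled points have an adjusted p under 0.05. The filled points are Csf2rb and Csf2rb2 in both comparisons with sham and Csf1r at 7 d.

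The gap between the receptor chains was tested within samples. Log2 CPM of Csf2rb minus that of Csf2ra was -1.40, -3.003, -1.78, -0.75 and -0.81 at 7 d, -1.56, -0.53, -1.03, -0.99 and -1.37 at 2 d, and -3.20, -3.39, -4.66 and -3.37 in sham. Each CVST sample lay above each sham sample, and CVST 7 d replicate 2 came nearest to them. The mean shift from sham was 2.11 at 7 d (exact permutation p = 0.0159; adjusted p = 0.0397) and 2.56 at 2 d (exact permutation p = 0.00794, the smallest the design allows; adjusted p = 0.0397). Csf2rb also gained on Csf1r, by 1.55 at 7 d (exact permutation p = 0.0238; adjusted p = 0.0446) and 1.98 at 2 d (exact permutation p = 0.0159; adjusted p = 0.0397). Csf2ra lost ground to Csf1r, by -0.58 at 2 d (exact permutation p = 0.00794; adjusted p = 0.0397), while the -0.55 at 7 d did not pass (exact permutation p = 0.0476; adjusted p = 0.0794). None of the 5 within-sample differences passed between 7 d and 2 d, where adjusted p ran from 0.456 to 0.881. Without 1 sample the shift of Csf2rb against Csf2ra stayed between 1.77 and 2.47 at 7 d and between 2.23 and 2.71 at 2 d, and that against Csf1r between 1.25 and 1.81 and between 1.68 and 2.25. The shift of Csf2ra against Csf1r stayed between -0.66 and -0.34 at 7 d and between -0.66 and -0.42 at 2 d. The same limit on p holds for these refits as for the ligands. On log2(FPKM + 0.1) the shifts of Csf2rb were smaller, 1.15 against Csf2ra at 7 d (adjusted p = 0.214) and 1.87 at 2 d (adjusted p = 0.0794).

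The sequence upstream of Csf2rb2, which rose, and of Csf2ra, which did not pass the test, is shown because Spi1, encoding the myeloid factor PU.1, rose at both times. The letters searched were GAGGAA, the core that PU.1 binds in many myeloid genes, on both strands; a match is a description of letters only. Of 32851 promoters of 300 bases in the RefSeq table (250 bases before the start to 50 after), 28.3% hold it. Below are the 250 bases before each start, RefSeq on GRCm38.p6, minus strand, 5′ to 3′, with matches in capitals.
Csf2rb2, chr15:78305722-78305971: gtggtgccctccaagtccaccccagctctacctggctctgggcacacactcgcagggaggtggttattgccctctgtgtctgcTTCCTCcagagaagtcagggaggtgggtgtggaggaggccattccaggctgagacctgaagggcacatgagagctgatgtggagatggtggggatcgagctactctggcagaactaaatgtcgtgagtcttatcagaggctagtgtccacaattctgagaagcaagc
Csf2ra, chr19:61228419-61228668: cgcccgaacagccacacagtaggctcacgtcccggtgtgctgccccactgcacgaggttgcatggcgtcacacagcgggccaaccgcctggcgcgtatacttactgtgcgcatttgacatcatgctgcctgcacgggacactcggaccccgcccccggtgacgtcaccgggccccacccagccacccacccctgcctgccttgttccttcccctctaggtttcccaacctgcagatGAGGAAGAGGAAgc
In Csf2rb2 the capitals are the reverse complement of GAGGAA, starting at position -167 from the start site, and a second match on the same strand lies at position 30, after the printed part. In Csf2ra 2 adjacent matches start at positions -14 and -8. The Csf1 window holds no match. Csf1r was left out of the search, and Il34 and Csf2rb were not found among the RefSeq promoters, so these genes were not searched. The longer GAGGAAGT, in 3.2% of the promoters, has 1 match in Csf2rb2, at position 28 and overlapping the second match, and none in Csf2ra or Csf1.

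The cytokines themselves were at or near the limit of detection. Csf2, which encodes GM-CSF, had 2 counts in 1 sample of 7 d and 0 in the other 4, 0 counts in all 5 samples of 2 d and 0 in all 4 sham samples. A count of 0 allows up to 0.0332 CPM over the 2 d group and 0.0416 CPM over the sham group, at 3 counts per group; such limits cover counting error only. Il3 had 0 counts in all 14 samples. Il5 had 5 counts over the 7 d group, 5 over the 2 d group and 1 over the sham group, and Il5ra, the alpha chain of the IL-5 receptor, 2, 0 and 0 counts over the same groups. The transcripts for the alpha and beta chains were thus measured in cortex where a transcript for GM-CSF was not detectable beyond 2 counts. Il3ra, the alpha chain of the IL-3 receptor, averaged 2.27 CPM at 7 d, 1.47 CPM at 2 d and 0.905 CPM in sham, with log2 differences from sham of 1.32 ± 0.39 (adjusted p = 0.0731, edgeR; 0.0245, DESeq2) and 0.70 ± 0.39 (adjusted p = 0.321, edgeR).

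Of 13 other ligands and receptors of the colony-stimulating and stem cell factor systems, 8 passed the filter on low counts. At 7 d, 1 of the 8 rose and 0 fell: Csf3r, the receptor for G-CSF, a growth factor of neutrophils, with 17.3 CPM at 7 d and 4.46 CPM in sham (log2 1.96 ± 0.38, adjusted p = 0.0141, edgeR). At 2 d, 0 of the 8 were called by edgeR (2 higher and 1 lower at an unadjusted p under 0.05), and the median log2 difference was 0.17, against 0.39 at 7 d. DESeq2 called 2 higher at 2 d, Csf3r (log2 1.05, adjusted p = 0.0477) and Sdc1 (log2 2.22, adjusted p = 0.0130). Limma-voom called 1 higher at 2 d, Csf3r, and 1 lower. Between 7 d and 2 d, 1 was called higher at 7 d: Ptprz1, a receptor phosphatase to which IL-34 also binds. It had 256 CPM at 7 d and 184 CPM at 2 d (log2 0.48 ± 0.11, adjusted p = 0.0372, edgeR). Against sham, limma-voom called it lower at 2 d (log2 -0.35, adjusted p = 0.0282), and edgeR called it at neither time. The edgeR call of Csf3r at 7 d was lost without sham replicate 2 or 3. The call of Ptprz1 held in 3 of 10 refits, those without CVST 2 d replicate 5, CVST 7 d replicate 1 or CVST 7 d replicate 5. The ligands and receptors of the related KIT and FLT3 systems, Kitl, Kit, Flt3l and Flt3, had log2 differences from sham between -0.15 and 0.62 at 7 d and between -0.37 and 0.54 at 2 d, none called by edgeR, DESeq2 or limma-voom.

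Transcription factors of macrophage identity, all 12 tested, showed 5 higher and 1 lower calls at 7 d (median log2 difference 0.78) and 2 higher and 0 lower at 2 d (median 0.59). Spi1, which encodes PU.1, a direct regulator of Csf1r, was called at both times, with 11.03 CPM at 7 d, 8.78 CPM at 2 d and 2.89 CPM in sham (log2 1.93 ± 0.40, adjusted p = 0.0175, and 1.60 ± 0.40, adjusted p = 0.0393, edgeR). Irf8, Runx1 and Irf5, which act in myeloid cells, rose at 7 d by 2.05, 1.64 and 1.58 on the log2 scale, and Cebpb, an acute-phase factor, rose at 2 d by 1.01. Egr2, which is also an activity-dependent gene of neurons, fell by 2.16 at 7 d; limma-voom also called it lower at 2 d (adjusted p = 0.0108). Sall1, a factor of microglia, had log2 differences of 0.58 at 7 d (adjusted p = 0.101, edgeR) and 0.32 at 2 d (adjusted p = 0.348, edgeR). The count of higher calls at 7 d was 2 without sham replicate 1, 0 without sham replicate 2, 3 or 4, 2 without CVST 7 d replicate 4, 3 without CVST 7 d replicate 5 and 7 without CVST 7 d replicate 2. At 2 d it was 4 without CVST 2 d replicate 5 and 0 without any other single sample. Between 7 d and 2 d edgeR called 0 of the 12 (2 higher and 2 lower at an unadjusted p under 0.05; DESeq2 and limma-voom called 0).

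Partners of CSF1R in signalling, all 19 tested, showed 7 higher and 0 lower calls at 7 d (median log2 difference 0.97) and 1 higher and 0 lower at 2 d (median 0.90). Tyrobp, the adaptor DAP12, stood at 38.6 CPM at 7 d and 8.02 CPM in sham (log2 2.27 ± 0.47, adjusted p = 0.0175, edgeR). Its kinase Syk rose by 1.53 on the log2 scale, and Plcg2, Inpp5d (SHIP1), Ptpn6 (SHP-1), Pik3cg and Vav1, enzymes of the same cascade, rose by 1.62, 1.46, 1.96, 1.59 and 1.91. Vav1 was also the 1 called at 2 d (log2 1.78 ± 0.40, adjusted p = 0.0296, edgeR). The partners that most cell types use, Grb2, Cbl, Fyn and Src, had log2 differences between -0.17 and 0.16 at 7 d and between -0.23 and 0.05 at 2 d, none called by edgeR or DESeq2; limma-voom called Cbl lower at 2 d (adjusted p = 0.0468). The count at 7 d was 3 without sham replicate 1, 0 without sham replicate 2, 3 or 4, 1 without CVST 7 d replicate 4, 4 without CVST 7 d replicate 5 and 11 without CVST 7 d replicate 2. At 2 d it was 5 without CVST 2 d replicate 5 and 0 without any other single sample. Between 7 d and 2 d edgeR called 0 of the 19 (2 higher and 1 lower at an unadjusted p under 0.05; DESeq2 and limma-voom called 0).

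Partners of the beta common chain, all 15 tested, showed 4 higher calls at 7 d (median log2 difference 0.13) and 5 at 2 d (median 0.55), with 0 lower at either time by edgeR. DESeq2 called 5 higher and 1 lower at 7 d and 8 higher and 0 lower at 2 d, and limma-voom 4 higher and 1 lower at 7 d and 7 higher and 0 lower at 2 d. Stat5a, a STAT of this receptor, had 2.96 CPM at 7 d, 3.30 CPM at 2 d and 1.07 CPM in sham (log2 1.47 ± 0.32, adjusted p = 0.0231, and 1.63 ± 0.32, adjusted p = 0.0178, edgeR). Its near relative Stat5b had log2 differences of -0.15 and -0.06, and the kinase Jak2 0.06 and 0.14, none called by any of these tools. Lyn, a kinase of the SRC family, rose by 1.56 at 7 d and by 1.31 at 2 d. Bcl2a1b, a survival gene of myeloid cells with close paralogs that may share its reads, rose by 3.39 at 7 d and 2.74 at 2 d. Socs3, a feedback inhibitor that many cytokines induce, stood at 5.52 CPM at 7 d, 30.1 CPM at 2 d and 3.38 CPM in sham. It rose at 2 d (log2 3.15 ± 0.42, adjusted p = 0.00371, edgeR) and was lower at 7 d than at 2 d (log2 -2.44 ± 0.37, adjusted p = 0.00698, edgeR). Cish, Socs2 and Pim1, classic targets of STAT5, had log2 differences of -0.32, -0.31 and 0.13 at 7 d and 0.04, -0.06 and 0.83 at 2 d, none called by edgeR. Socs2 was called lower at 7 d by DESeq2 (adjusted p = 0.0372), by limma-voom (0.0324) and by edgeR without the 2 libraries that lay beside sham (0.0309), and Pim1 higher at 2 d by DESeq2 (0.0330). The count at 7 d was 0 without sham replicate 2 or 3, 1 without sham replicate 4, and 2 without sham replicate 1 or CVST 7 d replicate 4. At 2 d it was 1 without sham replicate 2 or 3, 2 without sham replicate 4, and 3 without sham replicate 1 or any of CVST 2 d replicates 1, 2 and 3.

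Without CVST 7 d replicate 2 and CVST 2 d replicate 5 together, the higher calls at 7 d and at 2 d numbered 7 and 6 among the transcription factors, 11 and 8 among the CSF1R partners, 5 and 7 among the beta common partners, and 9 and 4 among the homeostatic microglia genes. Leaving out the CVST libraries that lay nearest sham favours such calls.

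**Figure D5:**
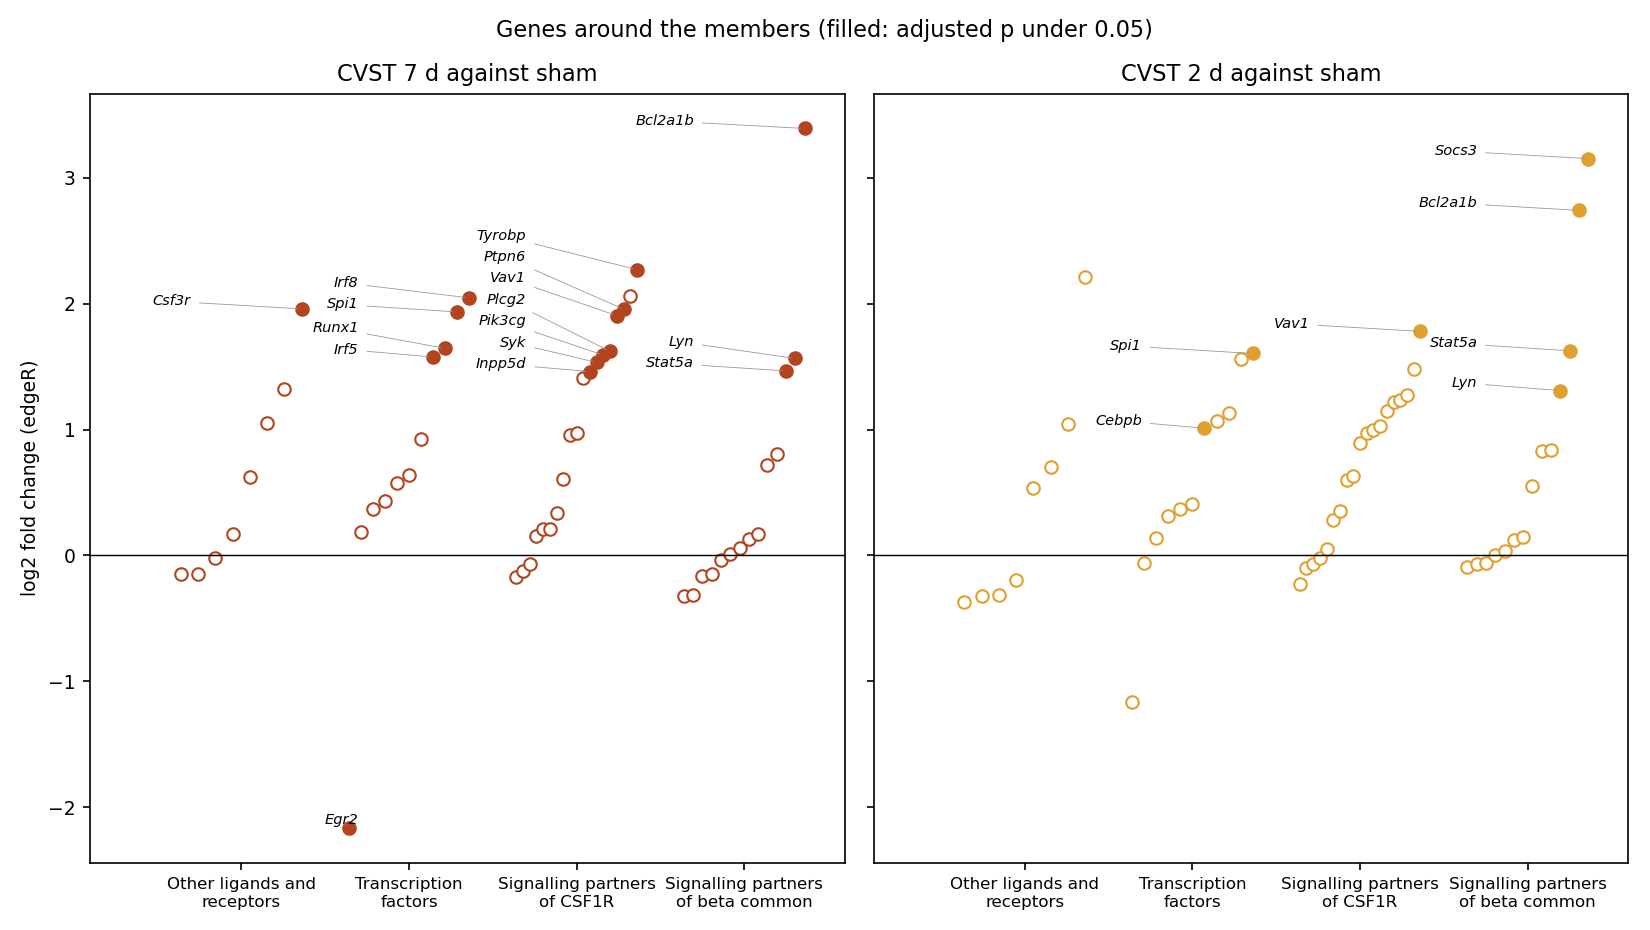
Log2 fold change (edgeR) of the reported genes of 4 lists around the axis, for CVST 7 d against sham and CVST 2 d against sham; filled, named points have an adjusted p under 0.05. Egr2 is the 1 named point below 0, and the called genes of the CSF1R and beta common lists lie above 1.

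Levels can be compared between the 6 genes only per length, and the deposited FPKM values are used for that. At 7 d Csf1r was the most abundant of them with 51.2 FPKM, ahead of Il34 (34.9), Csf2ra (16.1), Csf1 (13.5), Csf2rb (2.25) and Csf2rb2 (1.47). At 2 d Il34 (38.8 FPKM) and Csf1r (33.2) came first, then Csf1 (10.04), Csf2ra (9.60), Csf2rb (1.92) and Csf2rb2 (1.38). In sham Il34 led with 45.6 FPKM, ahead of Csf1r (20.9), Csf2ra (8.77), Csf1 (5.35), Csf2rb (0.55) and Csf2rb2 (0.28). The order of the last pair in sham rests on sham replicate 1, whose 1.52 FPKM of Csf2rb stands against 0.11 to 0.34 in the other 3. As CPM per kilobase of exon (GENCODE M21), Csf2rb2 stood above Csf2rb in every group, at 1.218 and 1.210 at 7 d, 1.02 and 0.967 at 2 d, and 0.188 and 0.146 in sham, and Csf1 (8.82) stood above Csf2ra (7.30) at 7 d. The ratio of FPKM to CPM of Csf2ra varied 2.13-fold across the samples. Several neighbours in the order had FPKM ranges that overlapped across the samples of a group. At 7 d these were Csf1r and Il34, Il34 and Csf2ra, Csf2ra and Csf1, and Csf2rb and Csf2rb2. At 2 d they were Il34 and Csf1r, Csf1 and Csf2ra, and Csf2rb and Csf2rb2. In sham they were Csf2rb and Csf2rb2. Such ranges ignore that the genes were measured in the same samples. In each 7 d sample Il34 stood above Csf2ra, most closely in replicate 4 (22.67 and 21.85 FPKM). The order of the genes within samples was not tested.

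Markers of other cell types that carry these receptors moved in the same samples. The 15 monocyte and macrophage markers summed to 678, 131, 338, 605 and 2542 CPM in the 7 d samples, 161 to 501 CPM at 2 d and 105 to 110 CPM in sham. The 7 d samples with the highest and the lowest sum were those with the most and the least Csf2rb. Between them, replicate 1 had a higher sum than replicate 4 but less Csf2rb (6.83 and 11.6 CPM). At 2 d replicate 2 had the most of both. The lowest sum there was in replicate 5 (161 CPM), and the least Csf2rb in replicate 1 (3.39 CPM). Of the 15, 4 were called higher at 7 d (Lyz2, Mrc1, F13a1 and Ms4a7) and 1 at 2 d (Arg1) by edgeR, with 0 lower and medians of 2.41 and 1.72 on the log2 scale. At 2 d DESeq2 called 8 higher, limma-voom 6 and edgeR without the 2 libraries that lay beside sham 6, and 10 were higher with no adjustment; at 7 d these were 7, 1, 7 and 11. The count by edgeR at 7 d was 0 without sham replicate 3 or 4, 1 without sham replicate 1 or 2, 2 without CVST 7 d replicate 4 or 5 and 6 without CVST 7 d replicate 2. At 2 d it was 0 without sham replicate 2, 3 or 4, 2 without CVST 2 d replicate 4 and 4 without CVST 2 d replicate 5.

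The 13 neutrophil markers summed to 9.38 to 36.8 CPM at 7 d, 11.9 to 27.6 CPM at 2 d and 5.75 to 8.73 CPM in sham, with Camp and Ly6g at 0 in all 7 d samples. Of the 5 tested, edgeR called 1 higher at 7 d (Csf3r, already described) and 1 at 2 d (Il1r2), the second in only 2 of 9 refits without 1 sample, those without CVST 2 d replicate 1 or 5. At 2 d DESeq2 called 3 higher and limma-voom 4, and 4 were higher with no adjustment. At 7 d each of these counts was 1. Between 7 d and 2 d edgeR called 0, and DESeq2 and limma-voom each called 2 lower at 7 d (S100a8 and S100a9). The 11 dendritic cell markers summed to 38.0 to 80.9 CPM at 7 d, 29.1 to 45.1 CPM at 2 d and 32.7 to 43.1 CPM in sham. Of the 6 tested, Itgax and Bst2 rose at 7 d, in every refit without 1 sample, and Bst2 at 2 d, though not without any 1 sham sample. The 14 lymphocyte and mast cell markers summed to between 4.10 and 23.0 CPM in all samples, with Cd3d, Nkg7, Ncr1, Gzma and Tpsb2 at 0 in sham, and of the 2 tested edgeR, DESeq2 and limma-voom called 0, also with no adjustment by edgeR. The part of these cells in the values of Csf1r, Csf2rb and Csf2rb2 was not tested.

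Astrocytes are a known source of CSF1, and their 8 markers summed to 3586 to 6984 CPM at 7 d, 3251 to 4099 CPM at 2 d and 2645 to 3480 CPM in sham. Gfap, the filament protein of reactive astrocytes, rose by 2.76 on the log2 scale at 7 d and 3.07 at 2 d. Aqp4 also rose at 7 d (log2 0.90) and Aldh1l1 at 2 d (log2 0.79), with 0 of the 8 called lower by edgeR. At 2 d the glutamate transporters Slc1a2 and Slc1a3 stood lower, at -0.46 ± 0.15 and -0.32 ± 0.14 (adjusted p = 0.101 and 0.211, edgeR); limma-voom called both lower, and DESeq2 and edgeR without the 2 libraries that lay beside sham called Slc1a2 lower. The count of 2 at 7 d was 1 without any 1 sham sample or CVST 7 d replicate 4; at 2 d it was 1 without sham replicate 3 and 4 without CVST 2 d replicate 5. Their part in Csf1 was not tested. Of 10 cell cycle genes, 1 was called higher at 7 d and 9 at 2 d, with medians of 2.05 and 3.32 on the log2 scale. Both counts were 0 without sham replicate 2, 3 or 4; the count at 2 d was 2 without sham replicate 1 and 5 without CVST 2 d replicate 2, 3 or 4, and that at 7 d was 0 without sham replicate 1 or CVST 7 d replicate 4 or 5, 2 without CVST 7 d replicate 3 and 3 without CVST 7 d replicate 2. Among 9 endothelial and mural markers, edgeR called 0 at 7 d (2 higher with no adjustment; 0 by DESeq2 and limma-voom) and 2 higher at 2 d (Pecam1 and Cdh5), a count that was 0 without sham replicate 2, 3 or 4 and 1 without sham replicate 1 or CVST 2 d replicate 1, 2 or 3. The lists for oligodendrocytes (7 genes), red cells (4 tested), striatum (8) and choroid plexus (7) had 0 calls against sham by edgeR at either time. Striatum sums were 262 to 1282 CPM at 7 d, 348 to 1212 at 2 d and 218 to 1533 in sham. Choroid plexus sums were 10.04 to 129 CPM at 7 d, 5.30 to 499 at 2 d and 13.6 to 884 in sham. Both sums thus varied widely between samples of each group, sham included, and their part in the spread of other genes was not tested. With no adjustment, 3 choroid plexus genes were lower at 7 d, and at 2 d 1 oligodendrocyte gene was lower and 4 red cell genes were higher. DESeq2 called those 4 red cell genes and limma-voom 3 of that list at 2 d, edgeR all 4 without CVST 2 d replicate 5, and DESeq2 and limma-voom called no gene of the other 3 lists.

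The genes whose log2 CPM ran most like that of each gene over the 14 samples are given as a description, since all values share libraries and scaling. For Csf1r they included Axl and Trem2 (Pearson r 0.98 and 0.97), and with group means subtracted Pmp22 and Axl. For Csf1 they were Gusb, Tbxas1 and Ctsb (0.98, 0.97 and 0.97), and with group means subtracted Tcirg1, Ppp1r18 and Gusb. For Csf2rb they were Tlr13, Csf2rb2 and Lilr4b (0.98, 0.98 and 0.97), and with group means subtracted Cd48, Fli1 and Apobec1. For Csf2rb2 they were Fcgr3, Hfe and Csf2rb (0.98 each), and with group means subtracted Cd38, Pald1 and Lair1. For Csf2ra they were Bcl2l11, Slamf7 and Ddr2 (0.93, 0.91 and 0.91), and with group means subtracted Adam8, Tnfrsf23 and Cuedc1. For Il34 they were Cops7a, Gorasp1 and Mea1 (0.95, 0.94 and 0.92), and with group means subtracted Dnajc30, Cops7a and Gorasp1 (0.94, 0.93 and 0.93). By rank the latter were less alike, with a Spearman rho of 0.82, 0.78 and 0.53. Between the 6 genes themselves, Il34 had a negative Pearson r with each of the other 5, from -0.73 with Csf2rb2 to -0.34 with Csf2ra, and the other pairs ran from 0.57 to 0.98. With group means subtracted, Il34 ran from -0.52 with Csf2rb2 to -0.14 with Csf2ra, and the other pairs from 0.53 to 0.93.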

How the data were processed

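Total RNA from the cerebral cortex of 14 samples was sequenced. The authors deposited whole-number read counts per gene and FPKM values (fragments per kilobase of transcript and M fragments); per the submitters' processing notes, fastp, HISAT2 and DESeq2 1.16.1 were used on mm39. Counting tool, annotation and strand setting: not given in the sources used here. In all, the table held 55894 entries; 535 carry no gene (0.203% to 0.278% of counts) and were left out.

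One edgeR 4.0.16 model (R 4.3.3) covered the 14 samples with TMM scaling, group means and filterByExpr (16918 genes), tested with the quasi-likelihood test, 2-sided, and adjusted by Benjamini-Hochberg over all genes tested; the code was first tested on simulated data. Log2 CPM used a prior count of 2. Differences of log2 CPM within samples were compared by exact permutation of sample labels, with p adjusted over 15 tests. Alternatives were DESeq2 1.42.0, limma 3.58.1 (voom, and FPKM with pseudocounts 0.1 and 1), other scaling, no filter, the replicate number as a block, and leaving out samples. Genes named are the 6 of the axis, genes of 4 pathway lists and 14 marker lists, and the 3 genes most correlated with each of the 6. The genes and lists were chosen with earlier results of these data known. Sequences came from RefSeq (GRCm38.p6) and GENCODE M21, whose build differs from that of the counts. Total counts were 14.7 to 20.8 M per sample, and as amplified reads carry no molecular identifiers, limits from 0 counts cover counting error only. The labels do not say that samples are separate animals, so p-values measure the spread between these samples, which may be technical. A few genes of the lists are not reported here by name or plotted singly, though the counts, sums and medians include them.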

Additional observations from a re-analysis of the deposited data

Results flagged for a closer look

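In groups of 4 or 5 samples, 6 of 33 sets of values held 1 sample far from the others by Dixon's test, which chance flags in about 1 of 20 groups. Il34 was 28.2 CPM in CVST 7 d replicate 4, the next lowest of that group being 40.9 CPM. Csf2ra was 32.2 CPM in CVST 7 d replicate 5, the next highest being 19.5 CPM. The log2 difference of Csf2ra minus Csf1r was -3.72 in CVST 2 d replicate 1, with the next at -3.03, and -2.77 in sham replicate 2, with the next at -2.45. The log2 difference of Csf2rb minus Csf2ra was -4.66 in sham replicate 3, with the next at -3.39; that sample held 9 counts of Csf2rb. The log2 difference of Csf1r minus the homeostatic microglia mean was 2.63 in CVST 2 d replicate 5, with the next at 2.20.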

How the results depend on the processing

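With edgeR the calls numbered 505 higher and 164 lower for CVST 2 d against sham, 611 and 141 for CVST 7 d against sham, and 261 and 212 for CVST 7 d against CVST 2 d. DESeq2 gave 1073 and 455, 1042 and 344, and 645 and 635; under it Csf1 at 7 d passed (1.23, adjusted p = 0.00499), and so did Csf2ra for 7 d against 2 d (0.60, adjusted p = 0.0488). With no filter, Csf1 at 7 d passed (1.22, adjusted p = 0.0397) and 92 genes were lower at 7 d. A fit of only the compared groups gave 55 and 26 calls for 7 d against 2 d. Limma-voom gave 1420 and 1196 calls at 2 d, 290 lower at 7 d, and 586 and 651 for 7 d against 2 d; Csf1 at 2 d passed (0.93, adjusted p = 0.0347), and for 7 d against 2 d Csf1 (-0.12), Csf2rb (-0.31) and Csf2rb2 (-0.44) changed sign without passing (adjusted p 0.477 to 0.789).

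On log2(FPKM + 0.1), Csf2rb did not pass at 2 d (1.89) or 7 d (1.92), Csf2rb2 for 7 d against 2 d turned to -0.056 (adjusted p = 0.960), and the counts were 61 lower at 2 d, 374 and 39 at 7 d, and 130 and 109 for 7 d against 2 d. The within-sample differences then missed the threshold (adjusted p 0.0794 to 0.400): Csf1 minus Il34 1.55 at 7 d and 1.08 at 2 d, Csf2rb minus Csf1r 0.74 and 1.26, Csf2rb minus Csf2ra 1.15 and 1.87, Csf2ra minus Csf1r -0.60 at 2 d, and Csf1r minus microglia 0.28 at 7 d. On log2(FPKM + 1), Csf2rb (0.97 at 7 d, 0.90 at 2 d) and Csf2rb2 (0.88 at each time, adjusted p = 0.0728 and 0.0714) did not pass, and the counts were 211 and 35 at 2 d, 232 and 33 at 7 d, and 128 and 112 for 7 d against 2 d; the larger pseudocount shrinks differences of low genes by construction.

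Without CVST 7 d replicate 2 and CVST 2 d replicate 5 together, Csf1 passed at 7 d (1.41, adjusted p = 0.0107) and 2 d (0.98, adjusted p = 0.0455) and Csf1r at 2 d (0.72, adjusted p = 0.0362). These libraries were picked by their place near sham, so this fit favours differences from sham. The counts were 1372 and 774 at 2 d, 1141 higher at 7 d, and 498 and 415 for 7 d against 2 d. Csf2ra minus Csf1r at 7 d (-0.66) and Csf1r minus microglia for 7 d against 2 d (0.25) passed (adjusted p = 0.0429), and Csf2ra minus Csf1r for 7 d against 2 d turned to -0.021.

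The labels do not say whether the replicate numbers pair the samples. Deviations from the group means of same-numbered samples correlated at -0.44 to 0.28, over 0.1 in 2 of 13 pairs. Samples with different numbers were not compared in this way, so these values do not settle whether the samples are paired. With the replicate block, Csf1r (1.20), Csf2rb (2.85) and Csf2rb2 (2.46) at 7 d and Csf2rb (2.67) and Csf2rb2 (2.40) at 2 d did not pass (adjusted p 0.0543 to 0.0995), Csf2ra at 2 d turned to -0.044, and the counts were 186 higher at 2 d, 55 and 26 at 7 d, and 57 and 34 for 7 d against 2 d. In the block form of the within-sample differences, where sign flips over 4 or 5 pairs cannot go low, the adjusted p of those that had passed was 0.234: Csf1 minus Il34 1.14 at 7 d and 1.22 at 2 d, Csf2rb minus Csf1r 1.30 and 1.99, Csf2rb minus Csf2ra 1.92 and 2.63, Csf2ra minus Csf1r -0.64 at 2 d, Csf1r minus microglia 0.26 at 7 d. Apart from what is stated here, the cause of these changes was not tested.

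Leaving out 1 sample at a time gave 60 to 1193 higher and 16 to 774 lower calls at 2 d, 101 to 892 and 18 to 143 at 7 d, and 98 to 604 and 75 to 705 for 7 d against 2 d. At 7 d the log2 differences ran over 0.86 to 1.40 (Csf1), -0.37 to -0.23 (Il34), 0.98 to 1.38 (Csf1r), 0.40 to 0.70 (Csf2ra), 2.60 to 3.33 (Csf2rb) and 2.37 to 2.93 (Csf2rb2). At 2 d they ran over 0.65 to 0.97, -0.31 to -0.19, 0.47 to 0.72, -0.14 to 0.11, 2.36 to 2.92 and 2.13 to 2.64 in the same order. For 7 d against 2 d they ran over 0.03 to 0.58, -0.14 to 0.042, 0.38 to 0.78, 0.39 to 0.75, -0.13 to 0.70 and -0.067 to 0.56. Within samples, Csf1 minus Il34 ran over 1.14 to 1.64 at 7 d, 0.91 to 1.22 at 2 d and 0.09 to 0.59 for 7 d against 2 d; Csf2rb minus Csf1r over 1.25 to 1.81, 1.68 to 2.25 and -0.70 to -0.17; Csf2ra minus Csf1r over -0.66 to -0.34, -0.66 to -0.42 and -0.13 to 0.24; Csf2rb minus Csf2ra over 1.77 to 2.47, 2.23 to 2.71 and -0.66 to -0.09; and Csf1r minus microglia over 0.22 to 0.32, 0.06 to 0.21 and 0.05 to 0.21.

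DESeq2 size factors in edgeR and a prior count of 0.5 changed no call of the 6 genes or of the within-sample differences. Of the other values, mostly list counts and correlations, 380 moved by more than their allowance and 1636 did not. Depth limits Csf2rb and Csf2rb2 in sham, at 9 to 24 and 11 to 23 counts a sample.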
